A study of Mus musculus with 53 samples.

Results

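Brain endothelial and barrier genes were examined in a mouse model of spinocerebellar ataxia type 3 (SCA3). The group was defined by gene symbol as Cldn5, Pecam1, Flt1, Kdr, Tek, Abcb1a, Slc2a1, Slco1a4, Ly6c1 and Esam, and 10 of 10 listed genes were found among the 12372 genes of the count table. SCA3 mice were hemizygous MJD84.2 animals, which carry full-length human ATXN3 with its CAG repeat expanded, under the human ATXN3 promoter, expressed throughout the body, beside the mouse Atxn3 gene. Their controls were wild-type mice, and both genotypes were male, on a C57BL/6 background and 74 to 77 weeks old (17.5 months). Tissue came from 8 wild-type and 6 SCA3 mice, each giving at most 1 library per region: 8 wild-type and 6 SCA3 libraries of brainstem, 7 and 6 of cerebellum, 7 and 6 of cortex, and 8 and 5 of striatum. The transgene is not restricted to a cell type, and the values are those of whole dissected tissue.

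The endothelial cells of brain capillaries form the blood-brain barrier. They are sealed to each other by tight junctions, carry few vesicles, and import nutrients and export drugs through dedicated transporters, while VEGF, angiopoietin and Wnt signals maintain them. Endothelial cells are a small share of brain tissue, so their transcripts are read here diluted in RNA of neurons and glia.

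Cldn5 encodes claudin-5, the main tight junction protein of the barrier, and Esam and Pecam1 encode adhesion molecules of the endothelial cell border. Flt1 (VEGFR1) and Kdr (VEGFR2) encode VEGF receptors, and Tek encodes Tie2, the angiopoietin receptor. Slc2a1 encodes the glucose transporter GLUT1, which in brain is made by capillary endothelium and, in another form, by astrocytes. Slco1a4 encodes an organic anion transporter, Abcb1a the drug efflux pump P-glycoprotein, and Ly6c1 a surface antigen of endothelial cells and some leukocytes. In the GRCm38 annotation of GENCODE the genes lie at chr16:18776847-18778262 (Cldn5), chr9:37528078-37538319 (Esam), chr11:106654217-106750628 (Pecam1), chr5:147561604-147726011 (Flt1), chr5:75932827-75978458 (Kdr), chr4:94739289-94874976 (Tek), chr4:119108711-119137983 (Slc2a1), chr6:141805440-141856199 (Slco1a4), chr5:8660077-8748575 (Abcb1a) and chr15:75044018-75048830 (Ly6c1). Counting ignored strand, so reads of Slc2a1 cannot be separated from those of the antisense genes Gm12867 and Gm12868, nor reads of Abcb1a from those of Gm42684 and Gm42686, which overlap it. Ly6c1, Abcb1a and Slco1a4 have close paralogs (Ly6c2, Abcb1b and other Slco1a genes), and their values are uncertain to the extent that uniquely aligned reads could not tell the copies apart.

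Promoter windows of RefSeq (GRCm38.p6, from 250 bases before to 50 after the start) were found for 8 of the 10 genes, in 9 windows because Ly6c1 has 2 starts. Pecam1 and Esam had none. The windows were searched on both strands for core letters of factors known in endothelium. Those were AGGAAG (ETS), TGTTTAC (forkhead), and ACAATGG and ACAATAG (SOX). AGGAAG or its reverse complement CTTCCT was present in 4 of the 9 windows (Flt1, Abcb1a, Slco1a4 and 1 of Ly6c1), against 35.4% of all 32851 windows of the table. TGTTTAC was present in that of Abcb1a only, at a share of 3.65% of all windows, ACAATAG in that of Tek only, at 2.37%, and ACAATGG in none of the 9, at 3.66%. The 250 bases before the start are shown for 3 genes whose RefSeq and GENCODE starts coincide, as examples of a window with ETS letters (Flt1, minus strand, chr5:147726012-147726261), with SOX letters (Tek, plus strand, chr4:94739039-94739288) and with none of the 4 motifs (Cldn5, plus strand, chr16:18776597-18776846). They are given 5′ to 3′ on the strand of the gene, with matches in capitals:
Flt1: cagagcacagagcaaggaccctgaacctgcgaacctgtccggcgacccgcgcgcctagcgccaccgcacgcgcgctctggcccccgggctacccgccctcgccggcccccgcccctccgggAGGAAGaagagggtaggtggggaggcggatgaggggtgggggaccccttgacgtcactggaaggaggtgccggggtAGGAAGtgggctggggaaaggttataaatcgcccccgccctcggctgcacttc
Tek: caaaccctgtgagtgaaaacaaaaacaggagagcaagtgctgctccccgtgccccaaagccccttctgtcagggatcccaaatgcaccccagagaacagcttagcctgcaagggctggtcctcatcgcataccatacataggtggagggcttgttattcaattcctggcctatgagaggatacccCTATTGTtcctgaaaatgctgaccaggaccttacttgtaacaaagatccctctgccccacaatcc
Cldn5: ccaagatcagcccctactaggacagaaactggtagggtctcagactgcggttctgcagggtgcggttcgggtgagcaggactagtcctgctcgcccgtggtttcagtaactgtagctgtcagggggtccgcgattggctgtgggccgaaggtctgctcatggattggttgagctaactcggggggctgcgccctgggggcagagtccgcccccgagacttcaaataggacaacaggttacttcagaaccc
In Flt1 the matches begin 129 and 53 bases before the start, and in Tek the reverse complement CTATTGT begins 65 bases before it. The Abcb1a window, with its ETS and forkhead letters, lies far upstream of the GENCODE start of the gene. Its 250 bases before the RefSeq start are at chr5:8566841-8567090, and the GENCODE start is at 8660077. A match is a description of letters, not of a bound site.

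Each library held 31.7 to 76.7 M counts (M for mega). The 10 genes were covered by between 307 counts (Tek, wild-type cortex) and 9710 counts (Slc2a1, SCA3 brainstem) in a library. RNA integrity numbers (RIN) ran from 6.3 to 7.6 in wild-type and 7.4 to 8.0 in SCA3 brainstem libraries, and from 5.7 to 9.0 in striatum. Defining markers of the endothelium were present in every region. Of 26 measured genes among 32 other endothelial genes, the summed level lay between 372 and 816 CPM (counts scaled to a common TMM-adjusted library total) over all 53 libraries. Of 7 blood cell markers 0 were in the table. It holds only genes averaging above 4 CPM in uniquely aligned reads, so the blood content of the tissue cannot be read from this absence.

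Levels can be compared between genes only per length. Divided by the merged exon length, wild-type brainstem held 32.9 ± 3.67 CPM per kilobase of Slc2a1 (SD, n = 8), 21.2 ± 5.49 of Cldn5, 17.2 ± 2.63 of Ly6c1, 9.03 ± 2.43 of Slco1a4, 7.38 ± 1.85 of Abcb1a, 5.11 ± 1.09 of Esam, 4.31 ± 0.89 of Pecam1, 3.75 ± 0.953 of Flt1, 3.59 ± 0.735 of Tek and 2.01 ± 0.423 of Kdr. By this length Slc2a1 and Cldn5 stood high and the receptors low, while Pecam1, Flt1 and Tek lay within 1 SD of each other. The order depends on the length taken. With the longest transcript, Slc2a1 came to 35.4 CPM per kilobase, Ly6c1 to 34.2, Cldn5 to 21.2 and Slco1a4 to 15.1. Flt1 then came to 7.35, near Abcb1a (8.09), Esam (7.85) and Pecam1 (7.8), while Tek came to 3.63 and Kdr to 3.06.

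**Figure D1:**
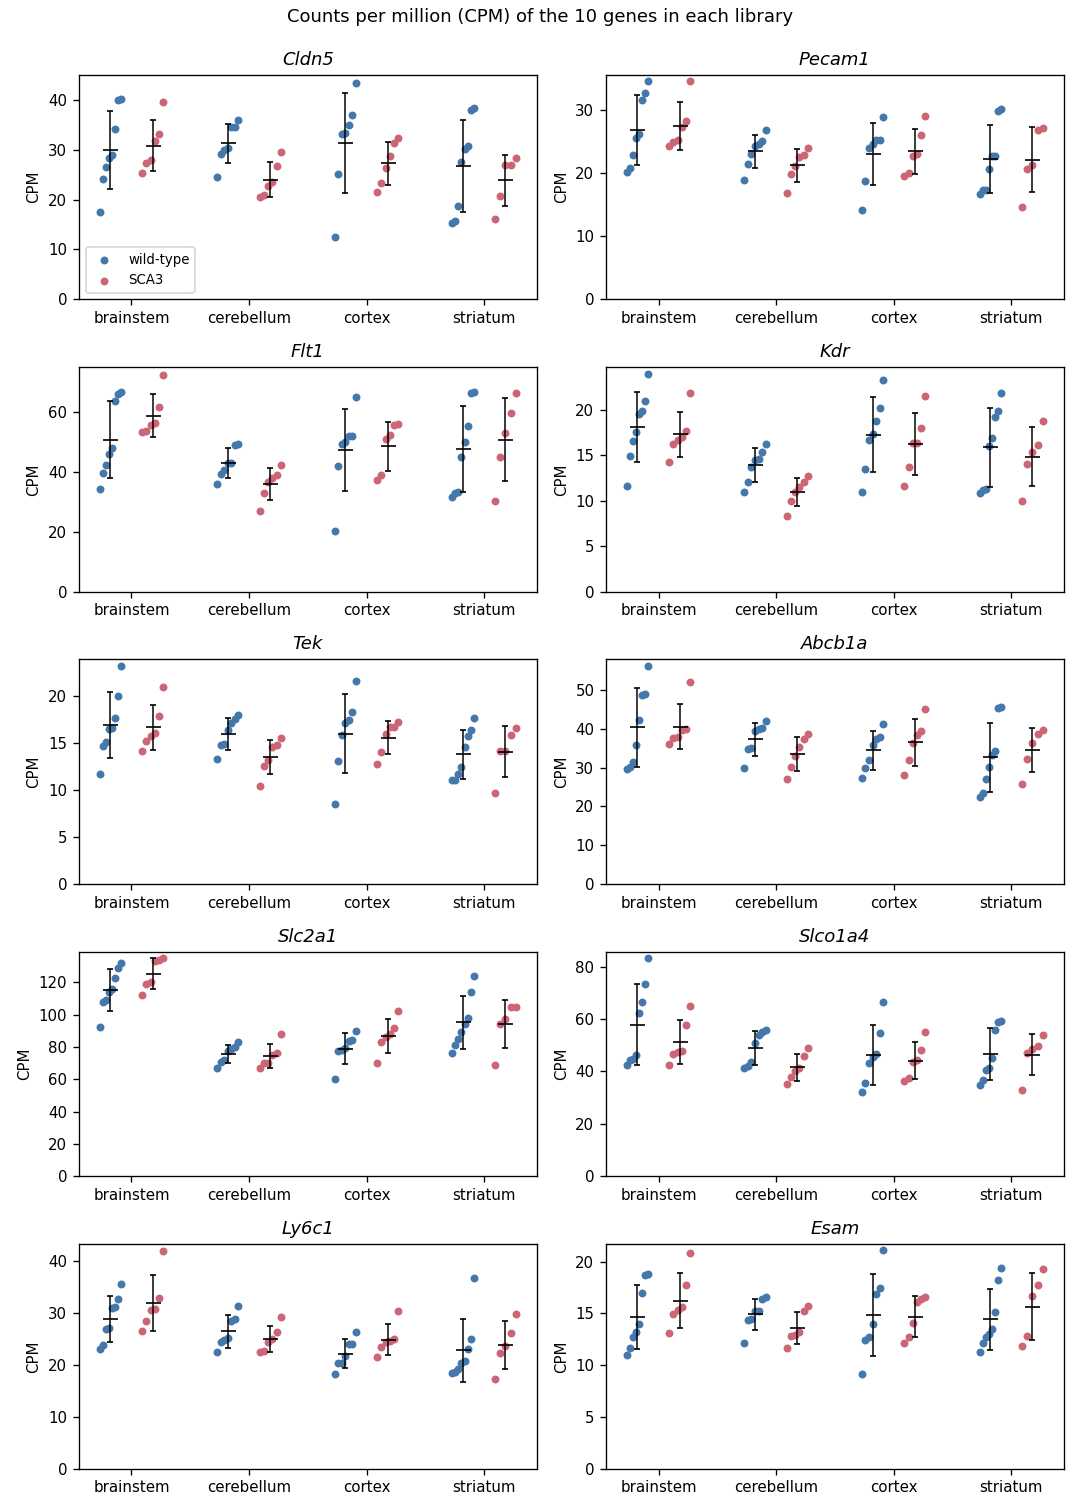
Scaled counts (CPM, vertical axis from 0) of the 10 genes by brain region, with 1 point per library (blue wild-type, red SCA3) and black bars for the mean ± SD of each group. In all 40 pairs of gene and region the wild-type and SCA3 points overlap, and Slc2a1 is highest in brainstem.

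To ask how the genes differ between brain regions, the wild-type groups were compared for each of the 6 pairs of regions. Slc2a1 separated the regions most. It ran from 92.2 to 132 CPM in wild-type brainstem (median 115), from 76.2 to 124 in striatum (median 92.0), from 60.3 to 89.9 in cortex (median 79.4) and from 66.9 to 83.1 in cerebellum (median 77.8). Every brainstem library lay above every cerebellar and cortical library, whereas brainstem and striatum overlapped. Against brainstem, Slc2a1 was lower by 0.61 in cerebellum (log2 fold change -0.61 ± 0.09 SE, FDR 2.9e-10, edgeR likelihood ratio test), by 0.54 in cortex (log2 -0.54 ± 0.09, FDR 2.8e-08) and by 0.28 in striatum (log2 -0.28 ± 0.09, FDR 0.0042). Striatum stood above cerebellum (log2 0.33 ± 0.09, FDR 0.00069) and cortex (log2 0.27 ± 0.09, FDR 0.016), and cortex and cerebellum did not differ beyond their spread (log2 0.07 ± 0.10, FDR 0.55). The step from cortex to striatum was not called without wild-type mouse 7267058 (FDR 0.059) or mouse 7267059 (FDR 0.064). FDR denotes the Benjamini-Hochberg adjusted p-value, taken over the 12372 genes of the table, and a gene below 0.05 is called.

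The other transporters and Ly6c1 also had their highest wild-type mean in brainstem. Ly6c1 ran from 23.0 to 35.6 CPM there (median 29.0), from 22.5 to 31.4 in cerebellum (median 25.1), from 18.3 to 26.3 in cortex (median 21.6) and from 18.5 to 36.7 in striatum (median 20.6). It was lower than in brainstem in cortex (log2 -0.38 ± 0.12 SE, FDR 0.0031) and striatum (log2 -0.35 ± 0.12, FDR 0.0056), with overlapping libraries, and not called in cerebellum (log2 -0.13 ± 0.12, FDR 0.34). Slco1a4 ran from 42.3 to 83.1 CPM in wild-type brainstem, the widest range of the 4 regions, and its medians were 54.3 in brainstem, 50.9 in cerebellum, 45.6 in cortex and 43.2 in striatum. It was lower than in brainstem in cortex (log2 -0.32 ± 0.14, FDR 0.040) and striatum (log2 -0.31 ± 0.14, FDR 0.040). Abcb1a ran from 29.6 to 56.2 CPM in brainstem and from 22.3 to 45.5 in striatum, and its difference was log2 -0.31 ± 0.13 (FDR 0.037). The calls of Slco1a4 and Abcb1a were lost in the wild-type libraries alone and with a RIN of at least 7. Those of Slco1a4 were also lost with limma-voom. In all, the cortical call of Slco1a4 was lost in 8 of 25 alternatives (5 of them single mice left out), its striatal call in 7 (4 of them single mice) and the call of Abcb1a in 6 (4 of them single mice).

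Of the receptor and junction genes, Kdr and Tek were each called in 1 pair of regions. Kdr ran from 11.6 to 23.9 CPM in wild-type brainstem (median 18.5) and from 11 to 16.2 in cerebellum (median 14.5), where it was lower (log2 -0.38 ± 0.16 SE, FDR 0.022). That call was lost without wild-type mouse 9082857, 9083372 or 9083375. Tek was lower in striatum, at 11 to 17.6 CPM, than in brainstem, at 11.7 to 23.1 (log2 -0.30 ± 0.13, FDR 0.041), and this call was lost in 8 of 25 alternatives. Flt1, with medians between 42.7 and 49.8 CPM, Pecam1 (21.8 to 25.9), Cldn5 (28.6 to 33.4) and Esam (13.3 to 15.2) were called in 0 of the 6 pairs in the unpaired fit. For Cldn5 the 95% interval of cortex against brainstem ran from log2 -0.30 to 0.43, so differences of that size could not be told from none.

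Over the 10 genes, 2 were called between cerebellum and brainstem, where 72.6% of all genes were called. The counts were 3 between cortex and brainstem (65.4% of all genes), 5 between striatum and brainstem (64.2%), 0 between cortex and cerebellum (69.7%), 1 between striatum and cerebellum (69.5%) and 1 between striatum and cortex (34.4%). The pairs share groups and are not independent. The regions were also taken from the same mice, and with the mouse as a fixed block in the wild-type libraries 4 further calls were made and 0 were lost: Kdr was higher in cortex (log2 0.40, FDR 0.00048) and in striatum (log2 0.23, FDR 0.037) than in cerebellum, Pecam1 was lower in striatum than in brainstem (log2 -0.28, FDR 0.012), and Slco1a4 was lower in cerebellum than in brainstem (log2 -0.24, FDR 0.025). With the mouse as a random block in limma-voom the added calls were Kdr in cortex against cerebellum (FDR 0.037), Pecam1 in striatum against brainstem (FDR 0.038) and Ly6c1 in striatum against cerebellum (log2 -0.25, FDR 0.034). The median absolute log2 difference of the 10 genes was 0.16 between cerebellum and brainstem, against 0.36 over all genes, 0.16 between cortex and brainstem, against 0.28, 0.07 between cortex and cerebellum, against 0.34, 0.19 between striatum and cerebellum, against 0.32, and 0.06 between striatum and cortex, against 0.15. Between striatum and brainstem, the pair with the most calls among the 10 genes, it was 0.27, against 0.26 over all genes. The share of the 10 genes that was called lay below that of the table in all 6 pairs, which is a description and was not tested. Between libraries of a group the 10 genes had a median SD of 0.27 on the log2 scale, against 0.16 for all genes, and the part of this larger spread in the low counts of calls was not tested.

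To ask whether the barrier genes change in SCA3, the genotypes were compared within each region. None of the 10 genes was called in any region by the edgeR likelihood ratio test. In brainstem 1.92% of all genes were called, in cerebellum 0.0647%, in cortex 0.154% and in striatum 7.54%. Of the 40 differences, 39 had a 95% interval that held 0, and 1 had an unadjusted p below 0.05 (Kdr in cerebellum). The intervals together ran from log2 -0.77 (0.584-fold) to 0.57 (1.48-fold), so for each of the 10 genes a change beyond these bounds lay outside its interval in every region. In bulk tissue a change in the number of endothelial cells and in the RNA of each cell cannot be told apart.

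**Figure D2:**
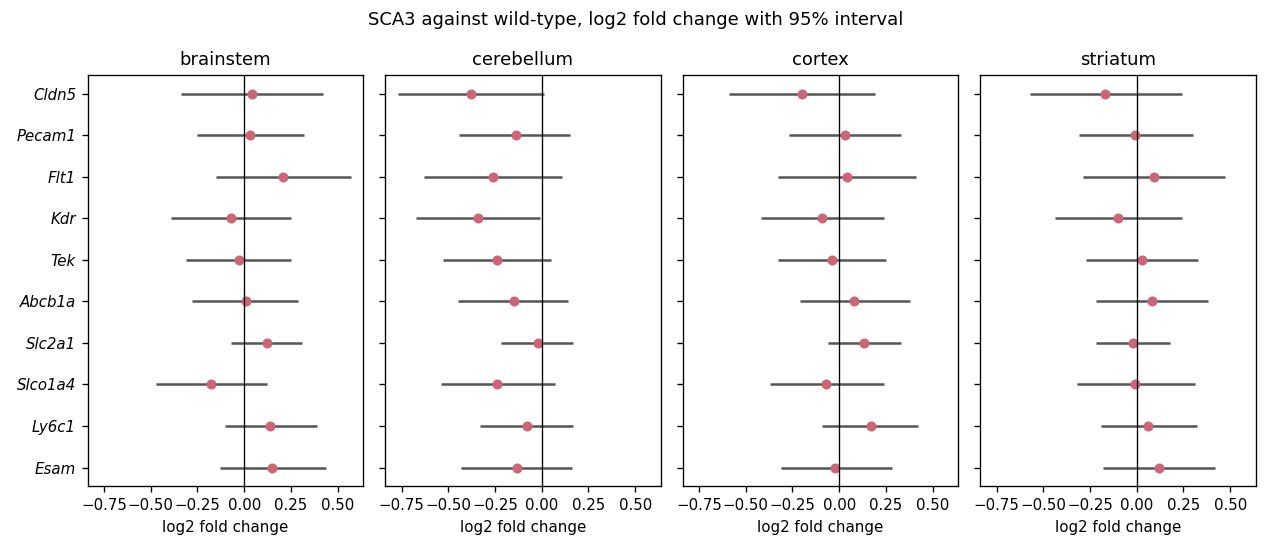
Log2 fold change of SCA3 over wild-type (horizontal axis) for the 10 genes in 4 regions, with points for the edgeR estimate and bars for its 95% interval. Cerebellum is the region in which 10 of 10 points lie below 0, the lowest being Cldn5 at -0.38 and Kdr at -0.34.

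In cerebellum the estimates of 10 of 10 genes were below 0, with a median log2 fold change of -0.20 (range -0.38 to -0.02), where 52.8% of all genes had estimates below 0 and the median of all genes was 0.00. Cldn5 ran from 24.6 to 36.0 CPM in wild-type (median 30.3) and from 20.6 to 29.5 in SCA3 cerebellum (median 23.2). The groups overlapped, and the difference was log2 -0.38 ± 0.20 SE (FDR 1.0, edgeR). Kdr ran from 11 to 16.2 CPM in wild-type (median 14.5) and from 8.35 to 12.7 in SCA3 (median 11.3), with a difference of log2 -0.34 ± 0.17 (FDR 1.0, edgeR). Flt1 ran from 36.0 to 49.3 CPM in wild-type (median 42.7) and from 27.0 to 42.3 in SCA3 (median 37.1), a difference of log2 -0.26 ± 0.19. Tek (log2 -0.24 ± 0.15) and Slco1a4 (log2 -0.24 ± 0.16) had estimates of the same size, whereas Slc2a1 was level between genotypes, with medians of 77.8 and 72.5 CPM (log2 -0.02 ± 0.10).

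The spread of the 10 genes was lowest in cerebellum in wild-type libraries (median SD of log2 0.17, against 0.31 in brainstem, 0.36 in cortex and 0.33 in striatum). In SCA3 libraries it was 0.19 in cerebellum, close to the 0.20 in brainstem and 0.22 in cortex, and 0.31 in striatum. A fit of the cerebellar libraries alone, which takes its spread from them, gave FDR 0.14 for Cldn5 and 0.47 for Kdr. With a thalamus marker score as a covariate in that fit, chosen after the data were seen, Cldn5 reached FDR 0.044 (log2 -0.39) and was called. With a choroid plexus score, also added later, Cldn5 had FDR 0.57 (log2 -0.43). Summed thalamus markers ran from 539 to 659 CPM in SCA3 and from 586 to 714 in wild-type cerebellum, against 173 to 362 in wild-type cortex. Whether their score reflects thalamic tissue in cerebellum was not tested. Of the choroid plexus markers, 3 of 10 were measured (Ttr, Kl and Clic6), with cerebellar estimates of log2 0.65 to 1.27 and 0 calls. Their summed level ran from 658 to 2000 CPM in SCA3 libraries (median 1140), within the range of 19.6 to 2120 in wild-type libraries (median 140), and its part in these values was not tested. Leaving out each mouse in turn moved the median of the 10 genes between -0.24 and -0.14, the latter without SCA3 mouse 7267054.

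In brainstem the median log2 fold change was 0.04, with 3 of 10 estimates below 0 (49.0% of all genes). Flt1 ran from 34.1 to 66.6 CPM in wild-type (median 46.8) and from 53.1 to 72.2 in SCA3 brainstem (median 55.9), and its difference of log2 0.21 ± 0.18 SE had FDR 0.67. Slc2a1 ran from 92.2 to 132 and from 112 to 135 CPM (log2 0.12 ± 0.10, FDR 0.63). Slco1a4 had the lowest estimate, log2 -0.18 ± 0.15 (FDR 0.66). No SCA3 brainstem library lay below the lowest wild-type library for any of the 10 genes. Mouse 7267054 stood apart for Abcb1a, at 52.1 CPM against 36.0 to 39.9 in the other SCA3 libraries.

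In cortex 5 of 10 estimates were below 0 and the median was 0.01. Cldn5 had the lowest (log2 -0.20 ± 0.20 SE, FDR 1.0), at 12.4 to 43.5 CPM in wild-type and 21.6 to 32.4 in SCA3 libraries, and Ly6c1 the highest (log2 0.17 ± 0.13, FDR 1.0), at 18.3 to 26.3 and 21.5 to 30.4 CPM. In striatum 5 of 10 were below 0 and the median was 0.01. Cldn5 was at 15.4 to 38.3 CPM in wild-type (median 28.9) and at 16.2, 20.7, 26.9, 27.0 and 28.4 in the 5 SCA3 libraries (log2 -0.17 ± 0.21, FDR 0.66). Esam had the highest striatal estimate, log2 0.12 ± 0.15 (FDR 0.66). The median absolute log2 fold change of the 10 genes in striatum was 0.07, and that of all genes was 0.11. Over the table striatum had 933 calls and brainstem 238, an order that turned in fits of each region alone, with 88 calls in striatum and 392 in brainstem.

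Averaged over the 4 regions, the lowest estimates were those of Cldn5 (log2 -0.18 ± 0.10 SE, 95% interval -0.37 to 0.02, FDR 0.33) and Kdr (log2 -0.15 ± 0.08, -0.32 to 0.01, FDR 0.32), and 0 of 10 genes were called, against 5.8% of all genes. For Abcb1a the averaged interval ran from log2 -0.14 to 0.15. These intervals come from the fit without a mouse block, which treats up to 4 libraries of a mouse as independent. They may therefore be too narrow. The joint test of a genotype effect in any region called 0 of 10 (4.73% of all genes), and the test of whether the effect differed between regions called 0 of 10 (0.218%), with a smallest FDR of 0.65 and 0.88. The cerebellar estimates were therefore not shown to differ from those of the other regions.

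Other genes of the vessel wall were read in the same libraries, so their direction is not independent evidence. Of the 26 other endothelial genes, 24 had estimates below 0 there (median log2 -0.17, 0 called), as had 9 of 9 measured pericyte markers (median -0.19, 0 called) and 4 of 4 smooth muscle markers (median -0.55, 0 called). The smooth muscle markers with the lowest estimates were Acta2 and Myh11 (both log2 -0.67, FDR 1.0), which encode contractile proteins. The smooth muscle markers were also 4 of 4 below 0 in brainstem (median log2 -0.25, 0 called) and striatum (median -0.26, 0 called), and 0 of 4 in cortex (median 0.25, 0 called), while 5 of 9 pericyte markers were below 0 in each of these regions. Summed smooth muscle markers ran from 20.3 to 35.2 CPM in SCA3 and from 29.6 to 55.1 in wild-type cerebellum. In brainstem 5 of the 26 other endothelial genes were below 0 (median log2 0.15, 0 called), in cortex 11 (median 0.02, 0 called) and in striatum 9 (median 0.03, 1 called).

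Among junction and barrier genes, Mfsd2a was called in brainstem under every alternative and in cerebellum under 13 of 26. The gene encodes the lysophospholipid transporter of brain endothelium, which carries omega-3 lipids and keeps vesicle traffic low. It ran from 15.6 to 32.5 CPM in wild-type (median 26.7) and from 31.9 to 51.2 in SCA3 brainstem (median 38.9). Of the SCA3 libraries, 4 of 6 lay above all wild-type libraries, and Mfsd2a rose by 0.61 on the log2 scale (0.61 ± 0.12 SE, 1.53-fold, FDR 0.00016). In cerebellum it ran from 7.44 to 10.2 CPM in wild-type (median 8.68) and from 8.98 to 17.4 in SCA3 (median 13.0), a rise of 0.56 ± 0.13 (1.47-fold, FDR 0.024). The estimates in cortex (log2 0.26 ± 0.13, FDR 1.0) and striatum (log2 0.19 ± 0.13, FDR 0.38) were not called, and the joint test over regions gave FDR 1.2e-07, while a difference between regions was not called (FDR 0.52). The brainstem call held in 24 of 24 other fits listed with the methods (log2 0.52 to 0.67), and with RIN as a covariate the difference was log2 0.65. RIN was higher in SCA3 than in wild-type brainstem, as given above. The cerebellar call was lost in 13 of 26 alternatives: with the quasi-likelihood F test (FDR 0.079), with limma-voom without a block (FDR 0.64) and with the mouse as a block (FDR 0.83), in the cerebellar libraries alone (FDR 0.11), with the choroid plexus score as a covariate in them (FDR 0.58), and without any 1 of 8 mice (7267054, 7267059, 9082853, 9082857, 9083371, 9083372, 9083375 and 9083515). Without single mice its FDR ranged from 0.0025 to 0.59. The estimate itself lay between log2 0.46 and 0.64 in all 26 alternatives.

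**Figure D3:**
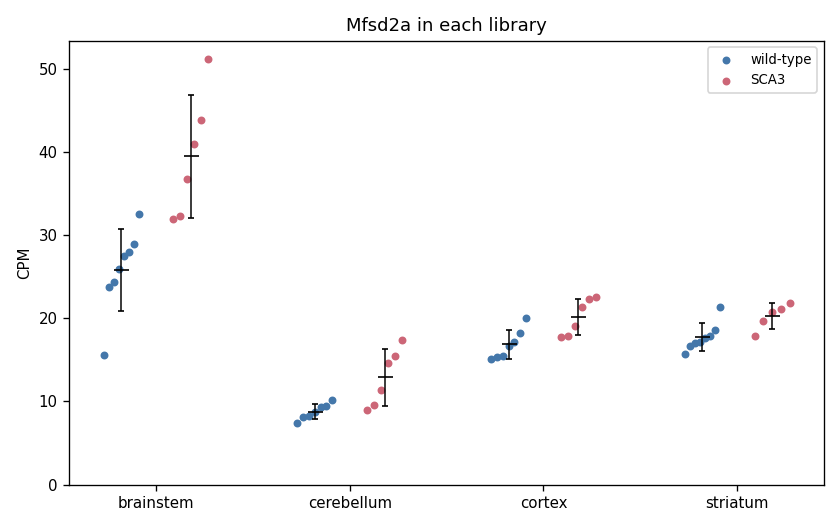
Mfsd2a in CPM (vertical axis from 0) by brain region, with 1 point per library (blue wild-type, red SCA3) and black bars for the mean ± SD. The SCA3 brainstem points run from 31.9 to 51.2 and the wild-type points from 15.6 to 32.5, and the groups overlap in all 4 regions.

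The correlation of Mfsd2a with the mean of the 10 genes over the 53 libraries, after removing group means, was 0.25. In SCA3 brainstem, where Mfsd2a rose, Cldn5 (log2 0.04 ± 0.20 SE) and Pecam1 (log2 0.03 ± 0.15) were not called. Of the astrocyte markers, 3 of 10 were called lower there (Slc1a2, Gja1 and Fgfr3, median of the list log2 -0.34), where 1.92% of all genes were called, with summed astrocyte markers of 2980 to 4700 CPM in SCA3 and 3340 to 7850 in wild-type libraries. Their part in the result was not tested.

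Of the remaining 11 junction and barrier genes, Cgn was called lower in striatum. It encodes cingulin of the tight junction plaque, and its correlation with the mean of the 10 genes was -0.29 (list median 0.33). It ran from 6.55 to 24.9 CPM in wild-type (median 12.2) and was at 4.9 to 10.1 in SCA3 libraries (log2 -0.92 ± 0.25 SE, FDR 0.0097), and the call was lost in 8 of 26 alternatives, among them limma-voom (FDR 0.068), the striatal libraries alone (FDR 0.17), and the fits without mouse 7267054 or 9083515. Of 17 other transporters, Abcc4, an organic anion efflux pump (log2 0.35 ± 0.11, FDR 0.029), and Insr, the insulin receptor (log2 0.18 ± 0.06, FDR 0.038), were called higher in striatum. Each of these calls was lost in 12 of 26 alternatives, among them the striatal libraries alone, a RIN of at least 7 and the removal of any 1 of 8 mice. Of 16 Wnt signalling genes, the coreceptor Lrp6 was called higher in striatum (log2 0.21 ± 0.07, FDR 0.042), a call lost in 13 of 26 alternatives, 9 of them single mice left out. Apart from Mfsd2a, these 3 lists had 0 further calls in the 4 regions. The striatal calls were 1 of 12 junction and barrier genes, 2 of 17 transporters and 1 of 16 Wnt genes, where 7.54% of all genes were called in striatum, so these counts lie near the background and are no result about the lists.

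Of 14 measured VEGF, angiopoietin and Notch genes, Notch1, a receptor of vessels and of neural progenitors, rose in brainstem. It ran from 34.4 to 44.5 CPM in wild-type (median 38.6) and from 46.4 to 59.0 in SCA3 libraries (median 54.2), without overlap (log2 0.45 ± 0.08 SE, FDR 4.1e-05), and the call held in 24 of 24 other fits listed with the methods. In striatum Nrp1, a VEGF and semaphorin coreceptor, was called lower (log2 -0.59 ± 0.16, FDR 0.014) and the semaphorin receptor gene Plxnd1 higher (log2 0.63 ± 0.22, FDR 0.048). Both are also made by neurons. The call of Nrp1 was lost in 9 of 26 alternatives, 5 of them single mice left out, and that of Plxnd1 in 15, 10 of them single mice left out and 1 the quasi-likelihood F test. Neither was called with a RIN of at least 7 or in the striatal libraries alone. The calls in this list were 1 of 14 in brainstem, where 1.92% of all genes were called, and 2 of 14 in striatum, where the share was 7.54%, and so few calls are no result about the list.

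Endothelial Gpr4, a proton-sensing receptor, fell in striatum, at 4.61 to 11 CPM in wild-type (median 6.75) and 3.87 to 4.56 in SCA3 libraries, without overlap (log2 -0.74 ± 0.18 SE, FDR 0.0048). Once libraries with RIN below 7 were dropped it was not called (FDR 0.069), and its estimate lay between log2 -0.81 and -0.62 in all 26 alternatives. Mcam, a cell adhesion molecule of pericytes and endothelium, fell there too. It ran from 35.8 to 72.8 CPM in wild-type (median 40.9) and from 21.7 to 29.2 in SCA3 libraries (log2 -0.85 ± 0.16, FDR 9e-05). The call held in 24 of 24 other fits listed with the methods. In brainstem (log2 -0.30), cortex (-0.33) and cerebellum (-0.09) Mcam was not called. Averaged over the 4 regions it was called lower (log2 -0.39 ± 0.08, FDR 5.5e-05), and a difference between regions was not called (FDR 0.24). Mcam was the 1 called gene of 9 measured pericyte markers in striatum, where 5 of 9 were below 0 and the median was log2 -0.01, with Rgs5 at 0.16, Abcc9 at 0.24 and Pdgfrb at -0.01. Gpr4 was the 1 called of the 26 other endothelial genes there. With 7.54% of all genes called in striatum, neither count is a result about its list. Thalamus markers stood apart between the striatal groups, with 7 of 7 measured markers below 0 (4 called lower, median log2 -1.41) and a summed level of 163 to 398 CPM in SCA3 and 163 to 2490 in wild-type libraries. With their score as a covariate in the striatal libraries alone, chosen after the data were seen, the differences were log2 -0.70 for Mcam (FDR 0.0097) and -0.68 for Gpr4 (FDR 0.041). In the same fit the other striatal genes named above were not called: Cgn (log2 -0.90, FDR 0.28), Abcc4 (0.31, FDR 0.40), Insr (0.16, FDR 0.27), Lrp6 (0.15, FDR 0.57), Nrp1 (-0.54, FDR 0.41) and Plxnd1 (0.30, FDR 0.60).

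Within groups the 10 genes rose and fell together. Log2 CPM values (with a prior count of 2) were centred on the mean of each region and genotype group, and over the 53 libraries the 45 pairs of genes had Pearson correlations between 0.38 (Slc2a1 and Slco1a4) and 0.94 (Pecam1 and Flt1), with a median of 0.78. The points share libraries, depth and, for up to 4 libraries, a mouse. The junction gene Cldn5, the adhesion molecule Pecam1 and the receptors Flt1, Kdr and Tek formed the tightest set, at 0.86 or more for every pair. Slc2a1 stood apart, with a median correlation of 0.52 with the other genes, as did Ly6c1 at 0.63. Slc2a1 also had the smallest within-group spread, an SD of log2 0.18, against 0.39 for Cldn5, a value larger than that of 89.8% of all genes.

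**Figure D4:**
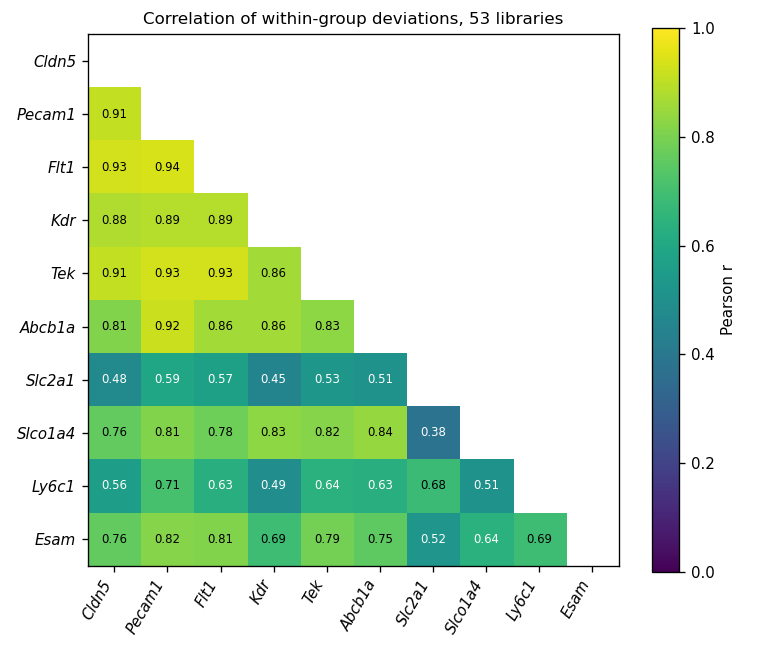
Pearson correlation of within-group deviations of log2 CPM for each pair of the 10 genes over 53 libraries (colour scale from 0 to 1, values printed in the cells). Values lie between 0.38 and 0.94, and the pairs with Slc2a1 include the lowest.

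By region, the median correlation of the pairs was 0.78 in brainstem (n = 14 libraries), 0.79 in cortex (n = 13), 0.88 in striatum (n = 13) and 0.51 in cerebellum (n = 13). In cerebellum 4 of 45 pairs were negative, the lowest being Slco1a4 and Ly6c1 at -0.51.

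Outside the list, the 8 genes most like the mean of the 10 genes were Ptprb (r = 0.94), Cdh5 (0.93), Robo4 (0.91), Slc19a3 (0.91), Cxcl12 (0.90), Ushbp1 (0.90), Adgrf5 (0.90) and Cd93 (0.90). Ptprb encodes an endothelial phosphatase that acts on Tie2 and cadherin, Cdh5 encodes VE-cadherin, Robo4 a guidance receptor of vessels, Slc19a3 a thiamine transporter and Cxcl12 a chemokine. None of the 8 was called in SCA3 in any region, and their estimates in cerebellum lay between log2 -0.33 (Cd93) and -0.10 (Adgrf5). A correlation above 0.5 with the mean was found for 23 of 26 other endothelial genes, 4 of 4 smooth muscle markers, 4 of 9 pericyte markers and 7 of 17 other transporters, against 2.56% of all genes outside the list. Such a correlation was found for 3 of 12 other junction and barrier genes and 5 of 16 Wnt genes. It was found for 3 of 14 VEGF, angiopoietin and Notch genes and 1 of 7 fibroblast and meningeal markers. It was found for 0 of 10 astrocyte markers, 0 of 10 microglia markers, 0 of 8 oligodendrocyte markers and 0 of 8 neuron markers. The median correlations of these last 4 lists were 0.08, 0.24, 0.36 and -0.09.

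**Figure D5:**
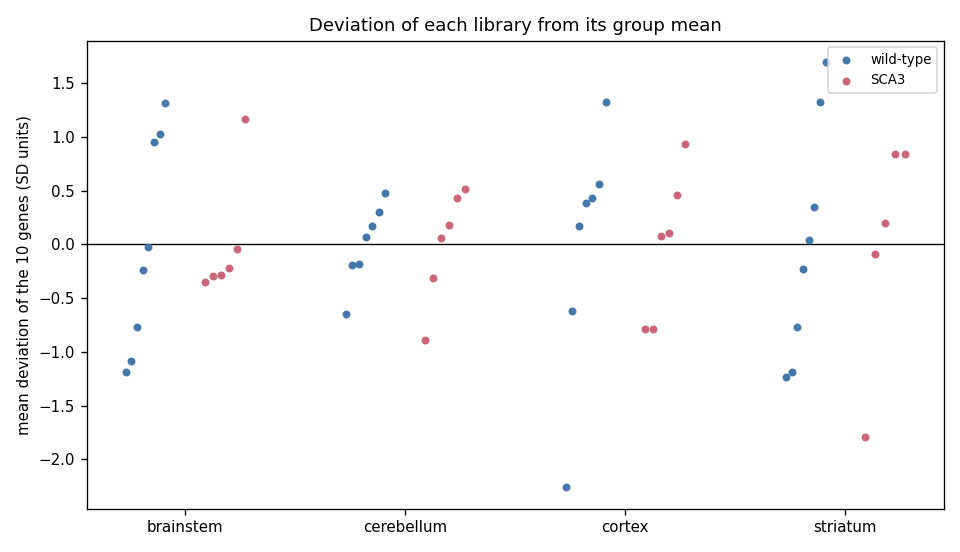
Mean deviation of the 10 genes from their group mean, in units of each gene's within-group SD (vertical axis), with 1 point per library (blue wild-type, red SCA3) by brain region. The lowest points are wild-type cortex at -2.26 and SCA3 striatum at -1.79, and cerebellar points lie between -0.89 and 0.52.

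The lowest mean deviation was that of wild-type cortex of mouse 7267055, at -2.26 SD units, and in this library 10 of 10 genes were at the lowest level of the wild-type cortex group, for example 12.4 CPM of Cldn5, 20.2 of Flt1 and 60.3 of Slc2a1. This library had a RIN of 7.7. The same mouse was lowest in wild-type striatum (-1.23, with a RIN of 6.0) but near the mean in brainstem (-0.24) and cerebellum (-0.19). SCA3 striatum of mouse 9083514 was at -1.79, with a RIN of 8.3, and 10 of 10 genes were at the lowest level of its group there, while in cortex the same mouse was highest among SCA3 libraries (0.94). The highest value was wild-type striatum of mouse 7267059 (1.7). Mouse 7267054 was highest in SCA3 brainstem (1.17) and lowest in SCA3 cerebellum (-0.89). No mouse was the lowest of its group in all regions, and the range of the mean deviation within a group ran from 1.13 in wild-type cerebellum to 3.59 in wild-type cortex.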

How the data were processed

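RNA sequencing counts of 53 libraries from 14 mice were used. The authors deposited unnormalised whole-number counts per gene in 1 table of 12372 genes and 53 columns. Per their methods, the authors made poly-A selected, unstranded paired-end libraries, trimmed the reads (Cutadapt 1.10 in the submitters' processing notes), aligned them to GRCm38 with STAR 2.3.0e, kept uniquely aligned reads, counted them per RefSeq gene with HTSeq 0.6.1 without strand and kept genes averaging above 4 CPM (lowest mean 4.07).

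From the counts, groups were compared in R 4.3.3 with edgeR 4.0.16, following the study's methods: TMM normalisation, a negative binomial fit of all 53 libraries with 8 groups of region and genotype, likelihood ratio tests, Benjamini-Hochberg adjustment over all genes and a false discovery rate (FDR) below 0.05. Intervals are the estimate ± 1.96 SE, as a 95% normal interval of the fit. Alternatives were DESeq2 1.42.0, RLE size factors, limma-voom (limma 3.58.1) without a block or with mouse as random effect, edgeR's quasi-likelihood F test, genes with at least 10 counts in every library (12337 genes), RIN or the series of the mouse number as a covariate, libraries with a RIN of at least 7 (49), the libraries of a region or of wild-type mice alone, and leaving out each mouse. Fits with a thalamus or choroid plexus marker score were added after seeing the data. Exon lengths and positions came from GENCODE M21 (GRCm38) and promoters from RefSeq (GRCm38.p6).

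The members and gene lists were chosen with earlier results of these data known. Named genes were the 10 members, list genes called in a region, list genes with the largest fold change, and the 8 genes most like the members' mean. The pericyte markers Rgs5 and Pdgfrb were named beside Mcam outside this rule. Results of some marker genes of other cell types are not reported here. Region and genotype come from the sample labels. A mouse number marks the same animal, so mice pair the libraries across regions: within-mouse correlations of deviations averaged 0.0904 to 0.186 over the 6 pairs of regions, and the blocked fit estimated 0.14. Each mouse has 1 genotype, and regional genotype tests stay unpaired under the block.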

Additional observations from a re-analysis of the deposited data

Results flagged for a closer look

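A gap test between the highest or lowest library and its nearest neighbour, which flags about 1 in 20 groups by chance, was applied to the 10 genes and Mfsd2a in the 8 groups (88 sets of values) and marked 3 libraries. Abcb1a stood at 52.1 CPM in SCA3 brainstem of mouse 7267054, where the next library was at 39.9. Slc2a1 stood at 60.3 CPM in wild-type cortex of mouse 7267055, where the next was at 77.4. Ly6c1 stood at 36.7 CPM in wild-type striatum of mouse 7267059, where the next was at 24.9. These are also the libraries with the highest mean deviation of the 10 genes in SCA3 brainstem (1.17), the lowest in wild-type cortex (-2.26) and the highest in wild-type striatum (1.7). No cause was tested.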

How the results depend on the processing

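The genotype calls of the 10 genes were 0 in every region, on average, in any region and between regions under every other fit and scaling listed with the methods, the mouse as a replicate block included (0 calls in each). With the thalamus score as a covariate in the cerebellar libraries alone, added later, 1 gene (Cldn5) was called. What that score measures in cerebellum was not tested. The median log2 fold change of the 10 genes ran from -0.04 to 0.10 in brainstem, -0.24 to -0.14 in cerebellum, -0.09 to 0.07 in cortex and -0.11 to 0.12 in striatum, and kept its sign in each of these settings only in cerebellum. The SD between libraries of a group of the genes' median deviation was 0.25, 0.15, 0.28 and 0.32 in these regions. That is the spread of single libraries and not the uncertainty of a difference between groups, so it cannot show whether the median was stable. Of 1091 recomputed values that were not called, 75 took the other sign.

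Between wild-type regions, the calls of striatum against brainstem fell from 5 to 2 with a RIN of at least 7 and to 2 in wild-type libraries alone, and ran from 2 to 6 without single mice. Cerebellum against brainstem ran from 1 to 2 calls without single mice, striatum against cortex from 0 to 1, striatum against cerebellum from 1 to 2 and cortex against cerebellum from 0 to 1. Cortex against cerebellum gave 1 call with DESeq2, RLE size factors, the mouse as a random replicate block and as a fixed block in wild-type libraries, and striatum against cerebellum 2 with limma-voom and both blocked fits. The cause was not tested. In the fixed block, 6 of 10 genes were called between striatum and brainstem and 3 between cerebellum and brainstem. Over all genes, genotype calls ranged from 120 to 392 in brainstem, 5 to 21 in cerebellum, 9 to 35 in cortex and 88 to 1833 in striatum. With 5 to 8 libraries a group, the SEs of the 10 genes on the log2 scale were 0.10 to 0.21 for genotype differences within a region and 0.09 to 0.19 for differences between wild-type regions, which limits what could be called.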
